A study of Mus musculus with 12 samples.

Results

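Apolipoproteins are the proteins that give plasma lipoproteins their structure and direct them to enzymes and receptors, and most of them are made by hepatocytes. Transcripts of the liver apolipoprotein genes were described here in mice given dextran sodium sulfate (DSS), an agent that injures the colon epithelium when it is drunk, and in untreated mice. The members were fixed by name as Apoa1, Apoa2, Apoa4, Apoa5, Apob, Apoc1, Apoc2, Apoc3, Apoe and Apoh. Of these 10 genes, 8 had a row among the 51609 rows of the count table. Apoa5 and Apoc2 were not analysed here. All 8 were abundant enough to be among the 17652 genes tested.

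Whole liver RNA was sequenced after removal of ribosomal RNA from 4 groups of 3 mice on the C57BL/6 background, a few weeks old and of either sex. Wild-type mice were Cre-negative littermates that carry the floxed alleles, and the Rela and Stat3 knockout mice (RelaΔhepStat3Δhep, called knockout here) lack both transcription factors in the cells where a Cre recombinase driven by the albumin promoter is active, that is in hepatocytes, while the other liver cells keep them. One group of each genotype drank water and was called untreated, and the other drank 2% DSS for 6 days. The comparisons ask whether colitis, or the loss of Rela and Stat3 in hepatocytes, goes with a different level of each apolipoprotein transcript, and whether the response to DSS differs between the genotypes.

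The members have distinct places in lipoprotein traffic. Apob is the large structural protein of very low density lipoprotein (VLDL), 1 copy of which stays with each particle from secretion to uptake. Apoa1 and Apoa2 are the main proteins of high density lipoprotein (HDL), and Apoa1 activates the enzyme that esterifies its cholesterol. The small exchangeable proteins Apoc1 and Apoc3 restrain the lipolysis and clearance of triglyceride-rich particles, Apoe is the ligand that receptors use to clear remnants, and Apoa4 is made by the intestine and, in mice, also by the liver. Apoh, also called beta-2-glycoprotein I, binds phospholipid and is known mainly from coagulation and autoimmunity.

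The genes lie in clusters and on separate chromosomes. In the mm9 build, with GENCODE vM1 gene models, Apoa1 (ENSMUSG00000032083, chr9:46036663-46038549, plus strand), Apoc3 (ENSMUSG00000032081, chr9:46041016-46043719, minus strand) and Apoa4 (ENSMUSG00000032080, chr9:46048779-46051542, plus strand) are neighbours on chromosome 9. Apoe (ENSMUSG00000002985, chr7:20281458-20284515) and Apoc1 (ENSMUSG00000040564, chr7:20274833-20278007) are neighbours on the minus strand of chromosome 7. Apob (ENSMUSG00000020609, chr12:7984454-8023641), Apoa2 (ENSMUSG00000005681, chr1:173155185-173156510) and Apoh (ENSMUSG00000000049, chr11:108204668-108275710) lie on the plus strand, away from the other members. The Apoh locus overlaps the processed transcript Gm11656 on the same strand, though not in an exon. An exon of Apoa4 overlaps the antisense transcript Gm10680 and an exon of Apoh overlaps Prkca on the opposite strand. No source used here says that counting was by strand, so reads from these overlaps cannot be told apart.

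The promoters of Apoa1 and Apoa4, which differed most between groups in mean level among the members, are printed here because Rela and Stat3 are DNA-binding factors. RefSeq windows on GRCm38.p6, from 250 bases before the start site to 50 after it, matched 6 of the 8 genes (9 windows). No window was at hand for Apoc1 or Apoc3. Capitals mark a match to a kB-type motif (GGGA and CC with 4 bases between them, on either strand), the kind of site that Rela binds. The first window is chr9:46228380-46228679 and the second chr9:46240594-46240893, both on the plus strand and written 5′ to 3′.
Apoa1: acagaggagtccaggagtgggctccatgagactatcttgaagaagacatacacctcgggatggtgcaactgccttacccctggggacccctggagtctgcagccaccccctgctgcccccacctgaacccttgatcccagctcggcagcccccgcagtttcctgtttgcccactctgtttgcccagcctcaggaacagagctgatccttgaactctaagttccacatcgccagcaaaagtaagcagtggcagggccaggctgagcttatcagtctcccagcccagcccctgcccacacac
Apoa4: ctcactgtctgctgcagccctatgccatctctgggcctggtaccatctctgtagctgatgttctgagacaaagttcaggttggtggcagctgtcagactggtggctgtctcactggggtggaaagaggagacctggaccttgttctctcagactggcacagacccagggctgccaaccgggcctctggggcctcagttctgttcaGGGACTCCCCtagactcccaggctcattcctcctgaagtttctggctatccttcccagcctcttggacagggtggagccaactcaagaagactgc

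The Apoa4 window held 1 kB-type match, 45 to 36 bases before the start site, and the Apoa1 window held none of the motifs searched. A kB-type match is common: 20.73% of the 32851 promoter windows of this length held one. The second windows of Apoa2 and Apoe each held 1, at 120 bases before the start. No window of the 6 genes held the STAT motif (TTC and GAA with 3 bases between them), which was in 8.298% of all windows, or 2 copies of the nuclear receptor motif AGGTCA in the same direction 1 base apart, which was in 0.04%. AGGTCA alone, which every such pair also contains, was in 16.255% of all windows and in those of Apoa2 and Apoh, and the TATA box TATAAA was in 13.616% and in those of Apoa2, Apob and Apoe. Each motif was searched on both strands. These matches describe letters in a window and were not tested against the expression values.

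Library totals ran from 65879529 to 82850098 estimated counts. Levels are given as CPM, counts relative to the library size scaled by TMM, a factor that corrects for libraries in which a few genes take a large share, and the factors ran from 0.758 (wild-type DSS replicate 2) to 1.13. That library also stood apart by its acute-phase transcripts, with Saa2, a serum amyloid A gene, at 23330 CPM against 697.8 in wild-type DSS replicate 3 and at most 73.1 in the other 10 libraries. Rela was at 39.5 to 62.3 CPM in the knockout libraries and 39.8 to 55.5 in the wild type, so its whole-gene count did not mark the knockout. Stat3 was at 43 to 74.8 CPM in the knockout and 45.7 to 329.5 in the wild type, also with overlap. Xist, expressed from the inactive X chromosome, was at 902.6 to 1283 CPM in the 3 knockout DSS libraries and at 1143 in wild-type untreated replicate 3, against at most 29 in the other 8. The Y-linked Ddx3y was at most 0.0838 CPM in the knockout DSS libraries and 14.3 in wild-type untreated replicate 3, and 89.4 or more elsewhere. Among knockout mice, the sex-linked transcripts and DSS thus cannot be told apart. All 3 knockout DSS libraries were high and all 3 wild-type DSS libraries low in Xist, so sex-linked transcripts and genotype after DSS cannot be told apart either, and the same holds for the difference between the responses to DSS. The larger shifts in the members' values without wild-type untreated replicate 3 or wild-type DSS replicate 2 are given beside the results. In whole tissue, fewer cells of a type and less RNA per cell cannot be told apart.

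Together the 8 genes took 3.867% ± 0.0894 of all counts in untreated wild-type mice (SD, n = 3), 4.267% ± 1.05 in wild-type mice on DSS, 4.422% ± 0.211 in untreated knockout mice and 4.262% ± 0.279 in knockout mice on DSS. The lowest and the highest library were both wild-type mice on DSS. Replicate 2 was at 3.082% (95% Wilson interval 3.0785% to 3.0859%) and replicate 1 at 5.078% (5.0723% to 5.0828%), intervals that cover counting error only. On this scale of raw shares the mice of that group spanned the values of every other group. With TMM scaling the order changed: the 8 genes summed to 40650 to 48030 CPM in wild-type mice on DSS, above the 37790 to 38760 CPM of untreated wild-type mice, and the lowest library was knockout untreated replicate 3 at 37190 CPM. Apob alone gave the largest part in each of the 12 libraries.

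**Figure D1:**
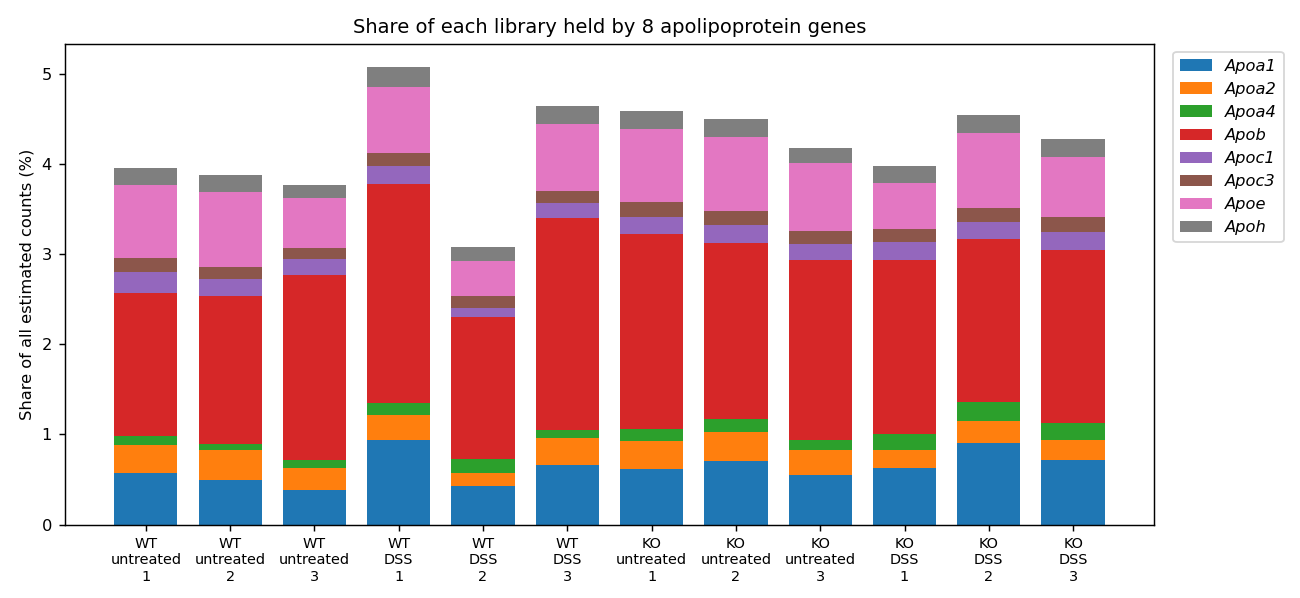
Stacked bars give the share of all estimated counts (percent, y axis) held by each of the 8 apolipoprotein genes in each of the 12 libraries (x axis, by genotype, treatment and replicate). Wild-type DSS replicates 2 and 1 are the shortest and tallest bars, at 3.082% and 5.078%, and Apob is the largest segment of every bar.

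Per kilobase of exon, which allows levels of different genes to be compared, Apoa2 was highest in untreated wild-type mice at 5514 ± 719 CPM per kb (SD, n = 3). Apoa1 followed at 3842 ± 711, Apoc1 at 3681 ± 444 and Apoe at 3643 ± 729, and these 3 neighbours in the order did not differ beyond their spread. Apoc3 (1354 ± 166), Apob (1248 ± 199) and Apoh (1053 ± 108) followed, with overlap between neighbours in this order but not between Apoc3 and Apoh, and Apoa4 was lowest at 430.8 ± 85.1. Apob was measured over 13.934 kb of exon, far more than the other genes. In both DSS groups Apoa1 had the highest mean per kilobase, at 5717 ± 1330 in the wild type and 5820 ± 845 in the knockout, ahead of Apoa2 at 4576 ± 1110 and 3966 ± 233. Apoa1 and Apoa2 overlapped in the wild-type DSS mice and not in the knockout DSS mice. Apoa4 was last in all 4 groups. The lengths are those of vM1 models, and with the longest transcript in place of the exon union Apoe moved from the 4th to the 2nd place in untreated wild-type mice, at 5205 CPM per kb.

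Among the 8 genes Apoa4 varied most between groups, with the 4 group means spanning 1.24 on the log2 CPM scale. Apoa1 spanned 0.606, Apoa2 0.475 and Apob 0.376, and the other 4 genes between 0.131 (Apoc3) and 0.314 (Apoc1). From the lowest to the highest library the difference was 3.3-fold for Apoa4, 2.33-fold for Apoa1 and 1.43-fold for Apoh, the narrowest.

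**Figure D2:**
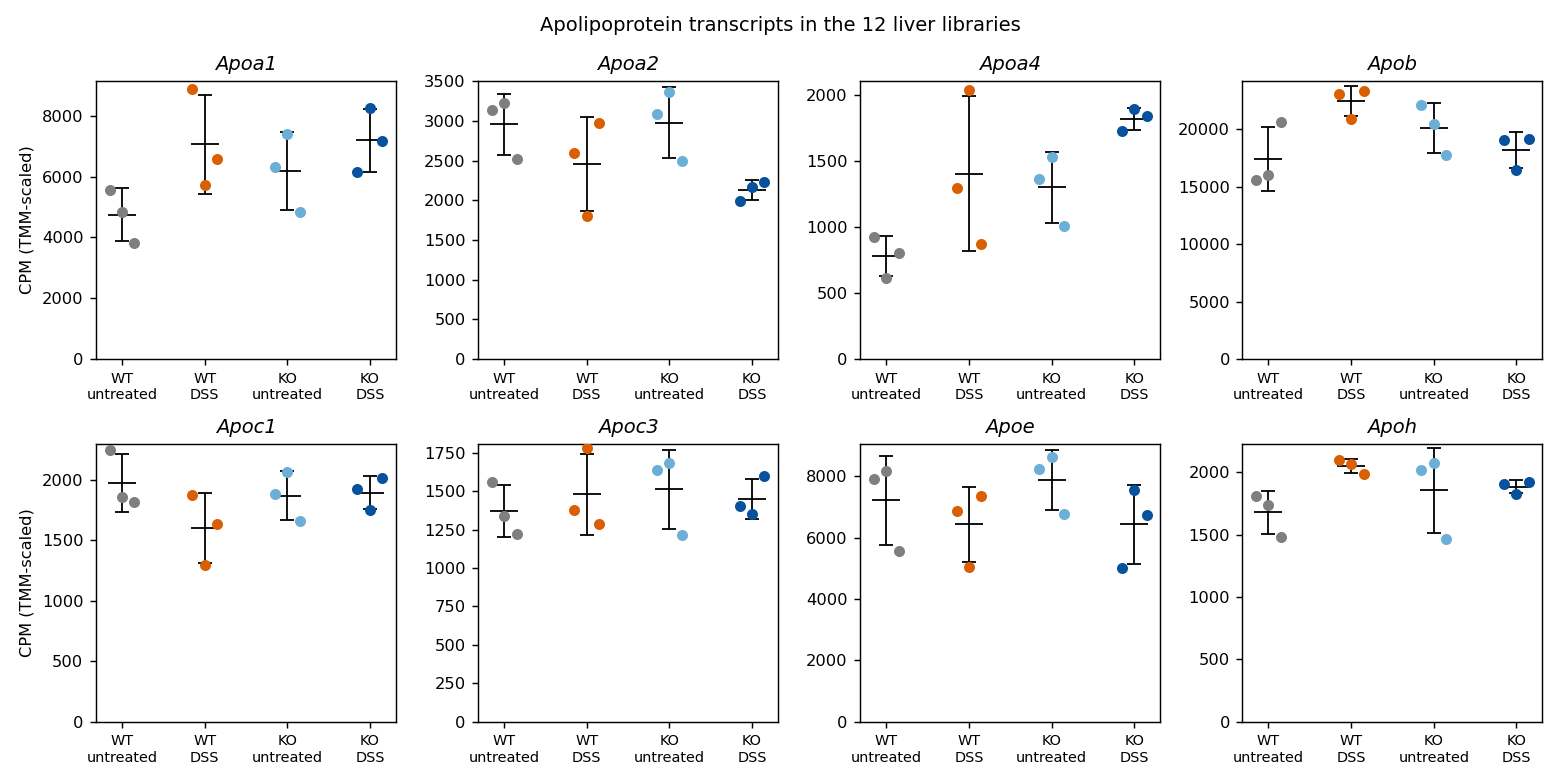
Each panel gives 1 gene, with CPM (TMM-scaled, linear y axis from 0) in each of 3 libraries per group as points, and the group mean with its SD as a bar. Apoa4 lies at 617 to 923 CPM in untreated wild-type mice and at 1732 to 1894 in knockout mice on DSS, while Apoc3 lies between 1213 and 1779 in all groups.

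The effect of DSS in wild-type mice was examined first. Apoa4 and Apoa1 had the largest differences, both towards a higher level, but none of the 8 genes passed the threshold of an adjusted p of 0.05 by edgeR's quasi-likelihood test. Over all genes 0.685% did (121 of 17652). At an unadjusted p under 0.05 edgeR gave 2 of the 8 genes (Apoa1 and Apoa4) and DESeq2 gave 4, where 14.5% and 16.1% of all genes were under it. DESeq2's adjusted p was under the threshold for 1, Apoa4 (adjusted p = 0.0426), and for 829 of the 17652 genes (4.7%). The 3 libraries of each group did not overlap for 3 of the 8 genes (Apoa1, Apob and Apoh), against 18.7% of all genes. The members' median log2 fold change was 0.20, beside 0.02 over all genes tested.

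Apoa4, a protein of chylomicrons and HDL, was at 923, 617 and 806 CPM in untreated wild-type mice and at 1301, 2038 and 876 CPM after DSS. The third DSS-treated mouse lay within the untreated range, and the second, the library that stood apart, was the highest of all 12. The log2 fold change was 0.85 (95% interval 0.24 to 1.46, edgeR adjusted p = 0.182). Without wild-type DSS replicate 2 it was 0.48 (adjusted p = 0.424), and without replicate 3 of that group 1.09 (adjusted p = 0.0738). Without both wild-type untreated replicate 3 and wild-type DSS replicate 2 it was 0.51.

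Apoa1 was at 5573, 4850 and 3823 CPM in untreated wild-type mice and at 8896, 5731 and 6571 after DSS. All 3 DSS-treated mice were above all 3 untreated mice, by a narrow margin between 5573 and 5731. The log2 fold change was 0.57 (95% interval 0.03 to 1.12, edgeR adjusted p = 0.314). It was 0.37 without wild-type DSS replicate 1, the highest library, 0.44 without wild-type untreated replicate 3 and 0.70 without wild-type DSS replicate 2. Apoa2, the other main protein of HDL, was at 3139, 3225 and 2518 CPM untreated and 2593, 1806 and 2973 after DSS, with overlap (log2 fold change -0.27, 95% interval -0.74 to 0.21). Without wild-type DSS replicate 2 the Apoa2 value was -0.09 (adjusted p = 0.893). Neither HDL gene passed the threshold.

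Apob was at 15570, 16010 and 20570 CPM in untreated wild-type mice and at 23000, 20900 and 23310 after DSS. The groups did not overlap, but the gap was small because wild-type untreated replicate 3, the library with high Xist, came close to the DSS-treated mice. The log2 fold change was 0.37 (95% interval -0.10 to 0.84, edgeR adjusted p = 0.476), and 0.50 without that replicate (adjusted p = 0.451). Apoh was at 1812, 1739 and 1485 CPM untreated and 2101, 2065 and 1987 after DSS, again with no overlap (log2 fold change 0.29, 95% interval -0.10 to 0.68, edgeR adjusted p = 0.504).

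The exchangeable apolipoproteins overlapped between untreated and DSS-treated wild-type mice. Apoc1 had a log2 fold change of -0.30 (95% interval -0.72 to 0.11), Apoe of -0.17 (-0.70 to 0.37) and Apoc3 of 0.11 (-0.32 to 0.54). Apoc1 was lowest of all libraries in wild-type DSS replicate 2, at 1296 CPM, and Apoc3 was highest there, at 1779 CPM. The sign for Apoc3 rested on that library, since its log2 fold change without it was -0.05, and without it Apoc1 was at -0.18 and Apoe at -0.02. Without wild-type untreated replicate 3 Apoe was at -0.33 and Apoc3 at 0.03. The neighbours Apoc1 and Apoe had the same sign, and the neighbours Apoa1, Apoc3 and Apoa4 did as well, though these intervals, apart from those of Apoa1 and Apoa4, include 0.

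In knockout mice on DSS none of the 8 genes passed the threshold by edgeR, where 7.02% of all genes did (1240 of 17652). DESeq2 also called 0 of the 8, against 13.2% of all genes. At an unadjusted p under 0.05 each tool gave 1, which by edgeR was Apoa2, while 24.1% of all genes were under it by edgeR and 25.8% by DESeq2. The groups did not overlap for 2 of the 8 genes, Apoa2 and Apoa4, against 31.8% of all genes, so neither share of the members was above that of all genes. The median log2 fold change of the members was -0.02 and that of all genes -0.01.

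Apoa2 was at 3084, 3363 and 2494 CPM in untreated knockout mice and at 1990, 2166 and 2232 after DSS. Every DSS-treated mouse was below every untreated one (log2 fold change -0.48, 95% interval -0.96 to -0.01, edgeR adjusted p = 0.197). Apoa4 was at 1366, 1535 and 1007 CPM untreated and at 1732, 1894 and 1847 after DSS. The 3 DSS-treated mice were close to each other, at 1824 ± 83.5 CPM (SD, n = 3), and above all untreated knockout mice (log2 fold change 0.49, 95% interval -0.12 to 1.09, edgeR adjusted p = 0.318).

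The other 6 genes overlapped. Apoa1 was at 6305, 7403 and 4853 CPM in untreated knockout mice and at 6166, 8254 and 7161 after DSS (log2 fold change 0.22, 95% interval -0.32 to 0.76). Apob had a log2 fold change of -0.14 (-0.61 to 0.33) and Apoe of -0.29 (-0.83 to 0.24). Leaving out 1 knockout library moved Apoa1 between 0.07 (without knockout untreated replicate 3) and 0.37 (without knockout untreated replicate 2), Apob between -0.23 (without knockout untreated replicate 3) and -0.07 (without knockout untreated replicate 1), and Apoe between -0.42 and -0.16 (without knockout DSS replicates 2 and 1). With high Xist as a covariate, which coincides with DSS among these mice, Apoa1 was at 0.66, Apoa2 at -0.15, Apob at -0.52 and Apoe at 0.24. Apoc1, Apoc3 and Apoh lay between -0.06 and 0.02, with intervals that ended at -0.49 and 0.43 or nearer to 0. In these 3 genes a log2 change beyond 0.5 in either direction is outside the interval of the fit without the Xist covariate. Over all alternative fits, that covariate included, Apoc1 ran from -0.0603 to 0.193, Apoc3 from -0.195 to 0.183 and Apoh from -0.12 to 0.282. No intervals were computed for those fits, so the bound does not cover the sex-linked imbalance.

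Between untreated knockout and wild-type mice none of the 8 genes passed the threshold by edgeR, against 0.0623% of all genes (11 of 17652). DESeq2 called 0 as well, against 1.8% of all genes. Each tool gave 1 gene at an unadjusted p under 0.05, by edgeR Apoa4, where 11.7% of all genes were under it by edgeR and 13.1% by DESeq2. The groups did not overlap for 1 of the 8 genes, again Apoa4, against 20.2% of all genes. All 3 untreated knockout mice had more Apoa4 (1007 to 1535 CPM) than all 3 untreated wild-type mice (617 to 923 CPM), with a log2 fold change of 0.74 (95% interval 0.13 to 1.35, edgeR adjusted p = 0.35). The same untreated wild-type mice are the reference of the DSS comparison above, so both Apoa4 values share them. Apoa1 had a log2 fold change of 0.38 (-0.16 to 0.92) and Apob of 0.21 (-0.26 to 0.68), with overlap. Without wild-type untreated replicate 3, the high-Xist library, Apoa4 was at 0.76 (edgeR adjusted p = 0.483), Apoa1 at 0.25 and Apob at 0.35. Apob was at 0.13 without wild-type untreated replicate 1 and without knockout untreated replicate 1. Apoa1 was at 0.23 without knockout untreated replicate 2 and at 0.53 without knockout untreated replicate 3. The other 5 genes lay between -0.08 (Apoc1) and 0.14 (Apoc3 and Apoh). The members' median was 0.14 and that of all genes 0.00153.

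After DSS, the largest difference between knockout and wild type among the members was that of Apoa4, whose groups overlapped (log2 fold change 0.38, 95% interval -0.23 to 0.98, edgeR adjusted p = 0.588). It was 0.74 without wild-type DSS replicate 2 (adjusted p = 0.216, with 1 member at an unadjusted p under 0.05) and 0.13 without replicate 3 of that group. Groups did not overlap for 2 of the 8 genes, Apob and Apoh, against 16.8% of all genes. Apob was at 19020, 16410 and 19130 CPM in the knockout and at 20900 to 23310 in the wild type (log2 fold change -0.30, 95% interval -0.77 to 0.17, edgeR adjusted p = 0.57). Apoh was at 1905, 1827 and 1926 CPM against 1987 to 2101 (log2 fold change -0.12, 95% interval -0.51 to 0.27, edgeR adjusted p = 0.816). The Apoh groups were tight, with an SD of 52.1 and 58.2 CPM (n = 3 each), and their means differed by little. The sign for Apoh depended on the scaling: without the TMM factor it was 0.02. None of the 8 genes passed the threshold by edgeR or DESeq2, against 0.334% of all genes by edgeR (59 of 17652) and 3.36% by DESeq2. At an unadjusted p under 0.05 there were 0 by edgeR and 1 by DESeq2, against 14.3% and 15.6% of all genes. Apoc1 (0.24) and Apoa2 (-0.21) overlapped. Without wild-type DSS replicate 2 they were at 0.11 and -0.39, while Apoc1 was at 0.38 without wild-type DSS replicate 1 and Apoa2 at -0.04 without wild-type DSS replicate 3. Apoe was the closest to 0, with 6887, 5044 and 7361 CPM in the wild type and 5020, 7554 and 6725 in the knockout (log2 fold change 0.00, 95% interval -0.53 to 0.53). With high Xist as a covariate, Apoe was at 0.54, Apob at -0.68 and Apoa1 at 0.47, with edgeR adjusted p of 0.822 to 0.906. The median was -0.01 for the members and -0.00291 for all genes.

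**Figure D3:**
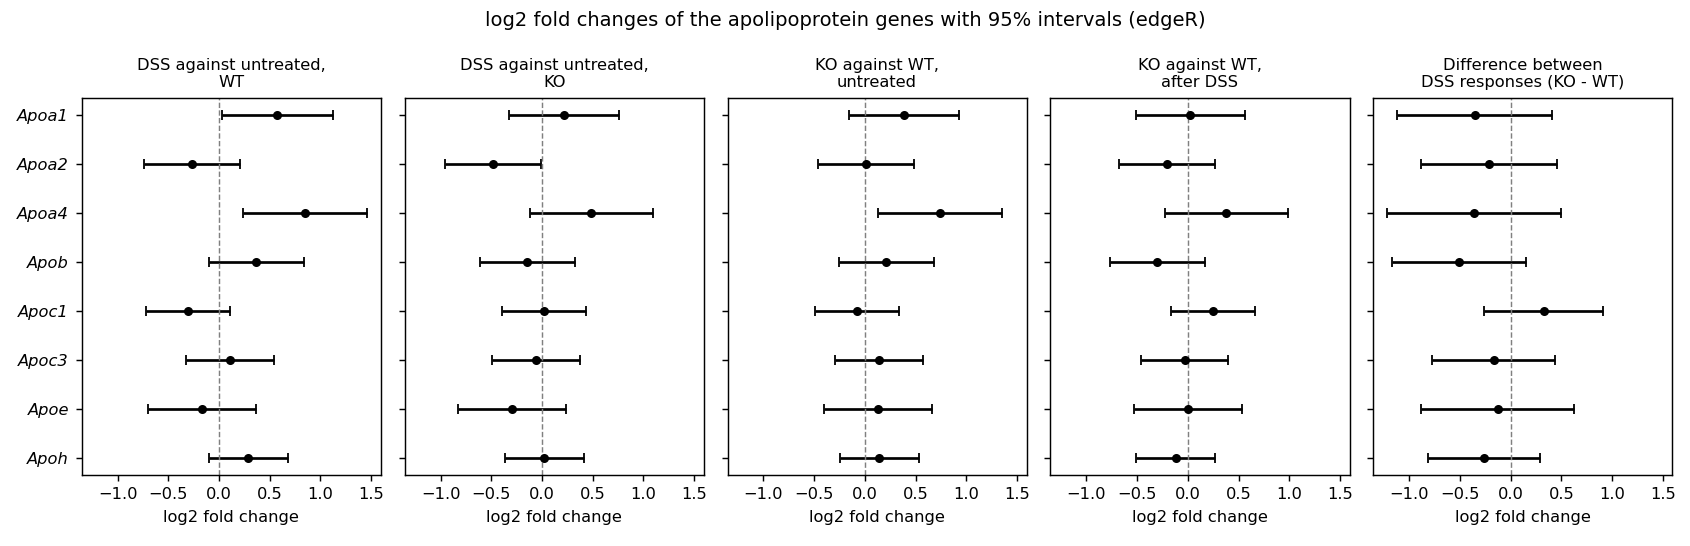
Points give the log2 fold change of each gene (y axis) in 5 comparisons (panels), and lines its 95% interval from the edgeR fit. The intervals of Apoa4 and Apoa1 for DSS in wild-type mice, Apoa2 for DSS in knockout mice and Apoa4 for the knockout without treatment exclude 0 before adjustment, and all others include it.

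The responses to DSS in the 2 genotypes were then compared directly, as the difference between the knockout and the wild-type log2 fold changes. None of the 8 genes passed the threshold by edgeR or DESeq2, against 0.408% of all genes by edgeR (72 of 17652) and 3.85% by DESeq2. At an unadjusted p under 0.05 edgeR gave 0 and DESeq2 1, against 16.3% and 18% of all genes. Apob had the largest difference, -0.51 (95% interval -1.17 to 0.15, edgeR adjusted p = 0.425), as its DSS-treated mice were above the untreated ones in the wild type and overlapped them in the knockout. For 7 of the 8 genes the difference was negative, Apoc1 being the exception at 0.32, as it was for 51.3% of all genes. With high Xist as a covariate, 5 of these 7 were positive (Apoa1, Apoa2, Apoc3, Apoe and Apoh), and Apob was at -1.03 (edgeR adjusted p = 0.7). Without wild-type untreated replicate 3 the difference was -0.64 for Apob, -0.22 for Apoa1, -0.11 for Apoa2 and 0.03 for Apoe. Without wild-type DSS replicate 2 it was -0.00192 for Apoa4, -0.40 for Apoa2, 0.18 for Apoc1 and -0.29 for Apoe. Over all fits that left out libraries, singly or as a pair, Apoa4 ran from -0.605 to -0.00192. Apoa1 ran from -0.503 to -0.153 and Apoa2 from -0.404 to -0.0528. The members' median was -0.24 beside -0.02 for all genes. The intervals of the fit without the Xist covariate reached from -1.22 (Apoa4) to 0.91 (Apoc1), and differences up to these bounds are not excluded.

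By their log2 CPM over the 12 libraries, the genes most like Apoa4 among 7064 others with a mean of at least 10 CPM were Bmp2k (Pearson r = 0.951, Spearman rho = 0.958), Skil (0.917 and 0.916), Cdkn1a (0.91 and 0.874), Hivep2 (0.893 and 0.923) and Tmem2 (0.875 and 0.888). Cdkn1a, which encodes the cell cycle inhibitor p21, had a mean of 12.2 CPM in wild-type mice on water and 40.6 on DSS, with 34.7 and 51.6 CPM for the knockout. Skil encodes an inhibitor of SMAD signalling and had means of 29.9, 54.7, 51.9 and 62.2 CPM in the same order. These correlations describe 12 libraries that share the same groups and scaling, and they were not tested.

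Genes that act with the apolipoproteins were taken from fixed lists. Of 16 further apolipoprotein-type genes named, 8 were tested. In wild-type mice on DSS 0 passed the threshold by edgeR, 4 had an unadjusted p under 0.05 and DESeq2 called 2 (Clu and Saa2), where 14.5% of all genes were under that p and DESeq2 called 4.7%. With DSS in knockout mice edgeR called 7.02% of all genes and DESeq2 13.2%. On this list DESeq2 called 3 (Apol9a, Apol9b and Saa2), and by edgeR 2 rose, Apol9a (log2 fold change 1.17, edgeR adjusted p = 0.0128) and Apol9b (1.09, adjusted p = 0.0407). These are near-identical copies between which reads may be split, so their separate values are uncertain. Apol9a was at 142.5, 167.4 and 186 CPM in untreated knockout mice and 314.7, 417.6 and 384.6 after DSS. The list's median log2 fold change was 0.53 in the wild type and 0.89 in the knockout. Apom, the HDL protein that carries sphingosine 1-phosphate, did not pass in either (0.23 and 0.24). For the knockout against the wild type after DSS edgeR called 0 of the 8, against 0.334% of all genes. There 3 had an unadjusted p under 0.05 by edgeR, and DESeq2 called 2 (Clu and Saa2), against 14.3% and 3.36%. For the difference between genotypes edgeR called 0 and DESeq2 called 1 (Clu), against 0.408% and 3.85%. Without treatment both called 0, against 0.0623% and 1.8%.

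Of 20 genes for the assembly and secretion of VLDL, 18 were tested. In wild-type mice on DSS 0 passed by edgeR, 5 had an unadjusted p under 0.05 (14.5% of all genes did) and DESeq2 called 1 (Sort1, with 4.7% of all genes called). In knockout mice on DSS 1 rose and 2 fell by edgeR, which called 7.02% of all genes. At an unadjusted p under 0.05 there were 7, against 24.1% of all genes, and DESeq2 called 4 (Dgat1, Dgat2, Pla2g12b and A1cf), against 13.2%. Pla2g12b, a catalytically inactive phospholipase family member needed for the lipid loading of VLDL, rose (log2 fold change 0.79, edgeR adjusted p = 0.0124), from 37.1, 36.4 and 27.8 CPM to 68, 56.2 and 50.4. Dgat1, an enzyme of triglyceride synthesis, fell by 0.48 on the log2 scale (adjusted p = 0.0368), and A1cf, an RNA-binding cofactor known from Apob mRNA editing, fell by 0.70 (adjusted p = 0.0461). Soat2, which makes the cholesteryl esters packed into VLDL, was lower in knockout than in wild-type mice after DSS, at 16.7, 19.2 and 15.4 CPM against 27.4, 33.6 and 29.6 (log2 fold change -0.82, edgeR adjusted p = 0.0392). It was the 1 of the 18 that edgeR called there, against 0.334% of all genes. DESeq2 called 3 (P4hb, Surf4 and Soat2), against 3.36%. For the difference between genotypes DESeq2 called Soat2, where it called 3.85% of all genes. Mttp, the transfer protein that lipidates Apob, did not pass in any comparison. Its log2 fold change with DSS was -0.06 in the wild type and -0.36 in the knockout.

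Of the genes that remodel lipoproteins in plasma, 12 of 15 named were tested, and Lpl was the 1 that passed by edgeR in any comparison. In wild-type mice on DSS edgeR gave 0 and DESeq2 called 2 (Lipg and Abca1), against 0.685% and 4.7% of all genes. DESeq2 also called Lipg and Lpl for DSS in the knockout, Lpl for the untreated knockout, Abca1 after DSS, and Lpl and Abca1 for the difference between genotypes. In the same order, DESeq2 called 13.2%, 1.8%, 3.36% and 3.85% of all genes. Lpl, the lipase that hydrolyses triglyceride of circulating particles, rose with DSS in knockout mice from 44.8, 23.2 and 41.4 CPM to 97.2, 83.9 and 73.9 (log2 fold change 1.22, edgeR adjusted p = 0.0355). Untreated wild-type mice had 139, 79.4 and 83.3 CPM, above all untreated knockout mice (log2 fold change of the knockout -1.46, edgeR adjusted p = 0.116), and after DSS the genotypes overlapped. Kupffer cells, the liver macrophages, also express it, and all 6 of their markers that were tested (Clec4f, Vsig4, Cd5l, Cd68, Marco and Lyz2) rose in the same comparison (7.02% of all genes were called), with a summed level of 300.9 to 334.2 CPM untreated and 630.5 to 1040 after DSS. In wild-type mice the sums were 249.4 to 490.4 and 388.8 to 844.8, with 0 of the 6 past the threshold by edgeR or DESeq2 and 5 at an unadjusted p under 0.05 by edgeR, against 14.5% of all genes. For the untreated knockout against the wild type, edgeR gave 0 of the 6 markers at an unadjusted p under 0.05, against 11.7% of all genes. Their median log2 fold change there was -0.233. The part of these cells in the Lpl results was not tested. Of 12 uptake genes tested, of 13 named, Vldlr, a receptor for triglyceride-rich particles, fell with DSS in wild-type mice by 2.61 on the log2 scale (edgeR adjusted p = 0.0302), from 23.5, 21.5 and 42.8 CPM to 2.74, 2.52 and 9.15. No other uptake gene passed by edgeR in any comparison, and edgeR called 0.685% of all genes for DSS in the wild type. DESeq2 called Vldlr and Lrp1 there, against 4.7% of all genes. It also called Lrp1 for the knockout against the wild type after DSS (3.36% of all genes called) and for the difference between genotypes (3.85%).

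Among transcription factors known to act on apolipoprotein genes, 22 of 26 named were tested. In wild-type mice on DSS 0 passed by edgeR or DESeq2, against 0.685% and 4.7% of all genes. There 3 had an unadjusted p under 0.05 by edgeR, against 14.5% of all genes. In knockout mice on DSS 5 fell and 0 rose by edgeR, where 7.02% of all genes passed. At an unadjusted p under 0.05 there were 15 of the 22 in that comparison, against 24.1% of all genes, and DESeq2 called 7, against 13.2%. Hnf4a, the nuclear receptor central to hepatocyte expression of many apolipoprotein genes, was at 1144, 1223 and 1226 CPM in untreated knockout mice and 623.7, 788.8 and 796.8 after DSS (log2 fold change -0.70, edgeR adjusted p = 0.0325). Ppara, the fatty acid sensor, fell by 0.93 on the log2 scale (adjusted p = 0.0145), Mlxipl, the carbohydrate-responsive factor ChREBP, by 1.19 (0.0224), Nr1h4, the bile acid receptor, by 0.71 (0.04) and the clock repressor Nr1d2 by 1.54 (0.0266). The list's median log2 fold change was -0.47 in the knockout and -0.08 in the wild type. By the test of the difference between genotypes 0 of the 22 passed by edgeR, 5 had an unadjusted p under 0.05 and DESeq2 called 1 (Cebpb). The shares of all genes were 0.408%, 16.3% and 3.85% in the same order. Over the same knockout comparison the members' median was -0.02.

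Nr1d1, which encodes the clock repressor REV-ERBα, was lower in the knockout than in the wild type in both conditions. It was at 4.98, 8.61 and 7.45 CPM against 71.5, 108.3 and 97.6 without treatment (log2 fold change -3.72, edgeR adjusted p = 0.000362), and at 4.07, 3.15 and 4.18 against 57.5, 43.3 and 91.3 after DSS (-4.08, adjusted p = 0.00016). Nr1d2 was also lower after DSS (-2.01, adjusted p = 0.0481). Of the 22 factors edgeR called 1 without treatment and 2 after DSS, against 0.0623% and 0.334% of all genes. At an unadjusted p under 0.05 edgeR gave 7 and 9 of the 22, against 11.7% and 14.3% of all genes. DESeq2's adjusted p called 3 in each (Foxo1, Nr1d1 and Esr1, then Nr1d1, Nr1d2 and Esr1), against 1.8% and 3.36%. No time of day of tissue collection was found in the sources used here.

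**Figure D4:**
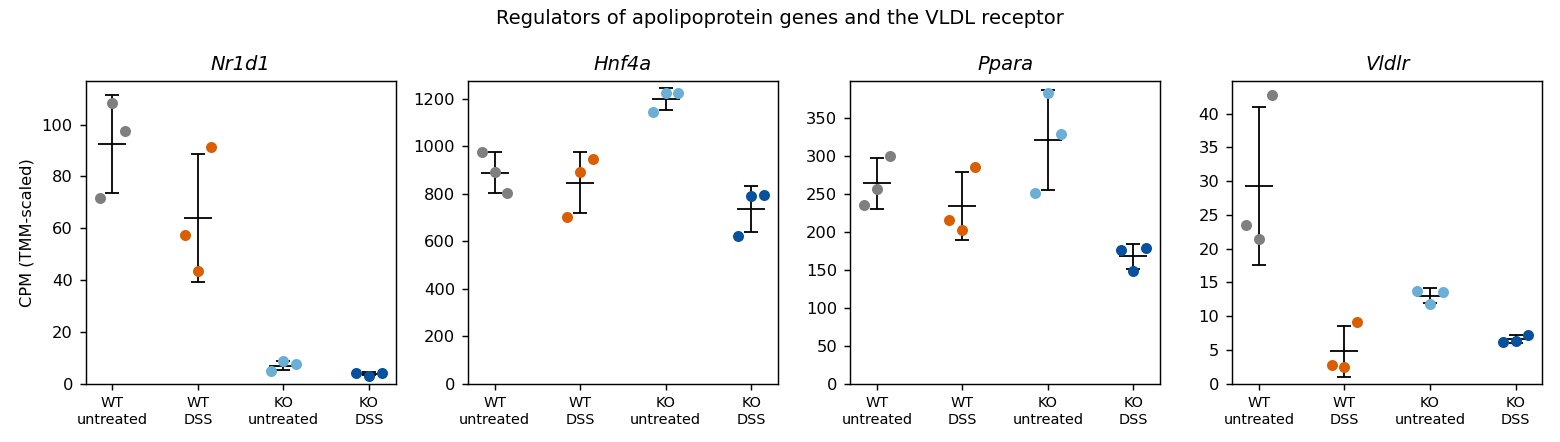
CPM (TMM-scaled, linear y axis from 0) of the clock repressor Nr1d1, the nuclear receptors Hnf4a and Ppara, and the receptor gene Vldlr in the 3 libraries of each group (points), with group mean and SD. Nr1d1 is below 10 CPM in all 6 knockout libraries, and Hnf4a falls from 1144 or more to 796.8 or less with DSS in the knockout.

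Several of these list calls were close to the threshold. Of the 12 fits that each left out 1 library, all 12 kept Nr1d1 in both comparisons and Pla2g12b. Apol9a was lost without knockout untreated replicate 2, Ppara without that or knockout DSS replicate 2, and Nr1d2 in the DSS comparison without knockout untreated replicate 2 or knockout DSS replicates 1 or 3. Hnf4a, Lpl and Mlxipl were each lost without any 1 of the 6 knockout libraries. Apol9b, Dgat1 and A1cf were lost without any knockout library and also without some wild-type ones, and kept in 4, 4 and 2 of the 12 fits. Nr1h4 and Soat2 were kept in 5 of the 12, and Vldlr and Nr1d2 after DSS in 3. Other settings also ended calls. With the replicate block, Apol9b (adjusted p = 0.0551), Dgat1 (0.0588), A1cf (0.0559) and Nr1h4 (0.0504) were lost. Without a composition factor, Apol9b (0.105), Dgat1 (0.197), A1cf (0.131), Lpl (0.0679), Hnf4a (0.0773), Mlxipl (0.0657) and Soat2 (0.101) were lost. With only the groups compared, Vldlr (0.212), Soat2 (0.111) and Nr1d2 for DSS in the knockout (0.0501) were lost. Without a filter on low counts, Vldlr (0.0643), Apol9b (0.0558), Dgat1 (0.0709), Lpl (0.056) and Nr1d2 in both its comparisons (0.0504 for DSS in the knockout and 0.0833 after DSS) were lost. With high Xist as a covariate, all calls of list genes were lost apart from the 2 of Nr1d1, Vldlr (adjusted p = 0.0955), Soat2 (0.61) and Nr1d2 after DSS (0.663) included, and the signs stayed. Of the 14 lost calls, 10 had a larger fold change with the covariate than without it (Apol9a at 1.41, Lpl at 1.61 and Ppara at -1.23 among them) and 4 a smaller one (Vldlr, Dgat1, Hnf4a and Mlxipl). In that fit the covariate coincides with DSS among knockout mice and is estimated from wild-type untreated replicate 3, and 4 genes in all were called for DSS in the knockout.

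The hepatocyte markers summed to 107600 to 123800 CPM in wild-type mice on water and 74630 to 124700 on DSS, and to 121400 to 131500 and 120300 to 160500 in knockout mice. Gene by gene, 5 of the 5 tested were negative with DSS in the wild type (median log2 fold change -0.165). In the knockout 4 were (median -0.332). Of all genes, 47.8% and 50.6% were negative. In the knockout edgeR called Hnf4a lower and DESeq2 called Tat and Hnf4a, against 7.02% and 13.2% of all genes. In the wild type both called 0, against 0.685% and 4.7%. Of the enterocyte markers, Sis, Cdx1 and Cdx2 were at 0 in all 12 libraries and Alpi in 11, Vil1 was at most 1.28 CPM and Fabp2 was at 16.3 to 99.1 CPM. The sum of the list was 33.5 to 72.3 CPM in untreated and 16.9 to 40 CPM in DSS-treated wild-type mice, 19.8 to 37.8 CPM in untreated knockout mice and 40.3 to 99.5 CPM in knockout mice on DSS, the group with the highest mean of Apoa4, which enterocytes also make. The library with the most Apoa4, wild-type DSS replicate 2, had the lowest enterocyte sum of all 12, at 16.9 CPM. The part of such cells in the Apoa4 values was not tested.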

How the data were processed

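Liver RNA of 12 mice was sequenced, 3 per group. According to the study's methods and the submitters' processing notes, the authors trimmed paired reads with fastp, aligned them to mm9 with HISAT2, assembled them with StringTie and deposited 1 table of estimated counts per Ensembl gene, held as whole numbers and not normalized. The annotation release behind the table is not given in the sources used here. Gene names, locations and exon lengths were taken from GENCODE vM1, in which 22932 of the 51609 rows had no name and for 15.34% of whose protein-coding genes the table held no row, which is why 2 members were not analysed here. The deposited estimated counts were tested as they stand.

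Genes were kept by edgeR's filterByExpr, and 17652 were tested in 1 model of the 4 groups over all 12 libraries (edgeR 4.0.16, TMM, robust quasi-likelihood F test, R 4.3.3). P-values were adjusted by Benjamini-Hochberg over all of them, with a threshold of 0.05. The standard error was the log2 fold change over the root of F, and 95% intervals used the fit's degrees of freedom. The fit was also run on simulated counts, with known large changes in the wild-type DSS group only and the same spread setting for every gene. That simulation held no library that stood apart and no sex imbalance, so it does not bear on small changes of the members. No pair of replicates agreed within sampling noise. The alternatives were DESeq2 1.42.0, DESeq2 size factors, no composition factor, a minimum of 10 counts per library or no filter, a fit restricted to the 2 groups of a comparison, a block for the replicate number, high Xist (over 100 CPM) as a covariate, leaving out each library in turn and, chosen after seeing the data, leaving out wild-type untreated replicate 3 and wild-type DSS replicate 2 together and the longest transcript as gene length. Correlations used log2 of CPM plus 0.5.

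The members, lists and markers were chosen with earlier results of these data known. Every member with a row was named. From each list, genes past the threshold were named (at most 5 per list and comparison, by lowest adjusted p) with 1 or 2 defining genes, and, for the member with the widest range of group means, the 5 genes most like it. Saa2, Rela, Stat3 and the sex-linked transcripts were named as checks of the libraries.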

Additional observations from a re-analysis of the deposited data

Results flagged for a closer look

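No apolipoprotein gene was among the results that met the criteria for a closer look. Among the members, list genes and markers, 4 Y-linked transcripts and 2 genes of the female-biased liver list did. Their response to DSS differed between knockout and wild type by the edgeR test, which 72 of all 17652 genes passed. The fitted differences on the log2 scale were -11.61 for Ddx3y, -11.71 for Uty, -10.18 for Kdm5d, -14.86 for Eif2s3y, 13.27 for Hao2 and 10.64 for Slc22a26. Some of the libraries behind these values were at or near 0 counts, so the fitted sizes depend on the prior count and are no bounds. Eif2s3y was at 0 CPM in all 3 knockout DSS libraries and at 40.1 to 50.1 CPM in the untreated knockout libraries, and Slc22a26 was at 183.8 to 276.6 against 1.9 to 8.64 CPM. The part of this imbalance in the apolipoprotein values was not tested apart from the fit with high Xist as a covariate.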

How the results depend on the processing

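Of 832 alternative values of the 8 genes' log2 fold changes, 776 kept their sign and their side of the threshold, 55 changed sign without being called in either fit and 1 passed the threshold. That 1 was Apoa4 for DSS in the wild type by DESeq2 (0.843, adjusted p = 0.0426), which gives a count of 1 gene there in place of 0. Its adjusted p over all alternatives ran from 0.0426 to 0.52. In all other alternatives and comparisons 0 of the 8 genes were called. The cause of the changes was not tested. For DSS in the wild type, Apoc3 was -0.0279 without a composition factor. For DSS in the knockout, Apoc1 was -0.00402 by DESeq2 and with DESeq2 size factors and -0.00543 with at least 10 counts in every library. For the knockout after DSS, Apoe was -0.000894 by DESeq2 and with its size factors, -0.0103 with at least 10 counts, -0.00472 with only the groups compared and -0.0101 with the replicate block. Without a composition factor, which moved the median of all genes to 0.139 after DSS and to 0.12 for the difference between responses, Apoc3 was 0.138 and Apoh 0.021 after DSS, and Apoc3 was 0.00699 for the difference. With high Xist as a covariate, Apoc3 was 0.183 and Apoe 0.241 for DSS in the knockout. In that fit Apoa2 was -0.0945 and Apoe -0.0285 for the untreated knockout, and Apoa2 was 0.131, Apoc3 0.213 and Apoh 0.136 after DSS. For the difference between responses it gave 0.225 for Apoa1, 0.226 for Apoa2, 0.15 for Apoc3, 0.564 for Apoe and 0.0737 for Apoh. Leaving out libraries, singly or as the pair, changed signs within these ranges. They were -0.118 to 0.206 for Apoc3 with DSS in the wild type. For DSS in the knockout they were -0.0603 to 0.1 for Apoc1, -0.195 to 0.0255 for Apoc3 and -0.12 to 0.116 for Apoh. For the untreated knockout they were -0.0954 to 0.124 for Apoa2, -0.16 to 0.0231 for Apoc1 and -0.0294 to 0.228 for Apoe. After DSS they were -0.108 to 0.229 for Apoa1, -0.118 to 0.123 for Apoc3 and -0.149 to 0.156 for Apoe. For the difference they were -0.285 to 0.0324 for Apoe and -0.303 to 0.0397 for Apoc3. Without wild-type untreated replicate 3 and wild-type DSS replicate 2 together, the values that changed sign were -0.118 for Apoc3 with DSS in the wild type, -0.000584 for Apoc1 with DSS in the knockout, -0.0764 for Apoa2 and -0.0101 for Apoe in the untreated knockout, -0.108 for Apoa1, 0.121 for Apoc3 and -0.149 for Apoe after DSS, and 0.0397 for Apoc3 in the difference. With the 3 most abundant genes of each library left out of the total, the 8 genes' share was 4.776% in untreated wild-type, 5.046% in DSS-treated wild-type, 5.398% in untreated knockout and 5.334% in DSS-treated knockout mice. Over all genes the counts of calls by edgeR, 121, 1240, 11, 59 and 72 in the order of the comparisons, were 829, 2336, 318, 593 and 679 by DESeq2 and 50, 4, 2, 5 and 4 with the covariate. With only the groups compared the first 4 were 21, 1698, 60 and 41. Leaving out 1 library gave 35 (without wild-type untreated replicate 2) to 209 (without wild-type DSS replicate 1), 241 (without knockout untreated replicate 2) to 1736 (without wild-type DSS replicate 2), 2 to 34, 11 to 392 and 21 to 220. The replicate numbers are only numbers in the labels: same-numbered libraries had correlations of their deviations between -0.0732 and 0.198. With the replicate block the counts were 119, 1164, 33, 66 and 128, and 0 of the 8 genes were called. The standard error of the members' log2 fold changes for DSS in the wild type ran from 0.182 to 0.282.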
